A study of Mus musculus with 6 samples.

Results

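The kinases of the mitogen-activated protein (MAP) kinase cascades were followed in NSC-34, a mouse cell line obtained by fusing a neuroblastoma with motor neurons of the embryonic spinal cord. The members were all genes whose symbol is Mapk, Map2k, Map3k or Map4k followed by a number, a rule that uses no measured value. They came to 40 of the 23038 genes listed: 13 MAPKs, 7 MAP2Ks, 15 MAP3Ks and 5 MAP4Ks. The study sequenced poly-A RNA from 6 libraries. In 3 of them the cells had received control siRNA (siNC), and in the other 3 siRNA against Qk (siQk), the gene of the Quaking RNA-binding proteins, which regulate splicing. All cells were grown in the same serum-containing medium, and the study describes the replicates as independent cultures of the 1 line. It used 3 different siRNAs against Qk, and neither the labels nor the methods say which library received which. A gene's count sums over its isoforms, so the inclusion of single exons was not measured by these values.

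In a MAP kinase cascade a MAP3K phosphorylates a MAP2K, and the MAP2K phosphorylates a MAPK on a threonine and a tyrosine of its activation loop. MAP4Ks and small GTPases act above the MAP3Ks. The ERK branch responds mainly to growth factors, whereas the JNK and p38 branches respond mainly to stress and inflammatory cytokines, and in neurons JNK signalling is known for its part in the response to axon injury. The study examined the splicing of Map4k4 (also called HGK) after Qk knockdown in mouse and human motor neuron models. It showed that of TAK1 (Map3k7) in a human cell line made to overexpress Quaking. It assayed JNK signalling as protein phosphorylation, in NSC-34 cells differentiated with retinoic acid and in knockout mice. Those NSC-34 cells were taken at an earlier time after transfection than the cells sequenced. The comparison of siQk with siNC here asks whether the transcript level of any cascade kinase differed.

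The activation loop carries a motif that differs between the JNK, p38 and ERK kinases. The coding sequence of the loop is shown for MAPKs of each branch that were expressed and tested. Each window holds 42 bases of coding strand from GENCODE release 21 (GRCm38), 5′ to 3′, with the codons of the phosphorylated motif in capitals. The exon named is that of the motif. The Mapk6 window crosses an exon junction and so is not continuous in the genome, whereas every other window lies in a single exon. The motif encodes threonine, proline, tyrosine in the JNKs, threonine, glutamate, tyrosine in the ERKs, threonine, glycine, tyrosine in the p38 kinases and serine, glutamate, glycine in the atypical kinase Mapk6 (ERK3).
Mapk8 (JNK1), minus strand, exon 6, motif at chr14:33393003-33393011: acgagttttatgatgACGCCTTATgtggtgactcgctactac
Mapk9 (JNK2), plus strand, exon 6, motif at chr11:49872830-49872838: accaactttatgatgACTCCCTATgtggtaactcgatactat
Mapk10 (JNK3), minus strand, exon 8, motif at chr5:102989681-102989689: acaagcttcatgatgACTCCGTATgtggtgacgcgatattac
Mapk3 (ERK1), plus strand, exon 4, motif at chr7:126763458-126763466: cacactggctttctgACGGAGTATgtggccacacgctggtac
Mapk7 (ERK5), minus strand, exon 3, motif at chr11:61491422-61491430: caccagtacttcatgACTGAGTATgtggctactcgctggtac
Mapk14 (p38 alpha), plus strand, exon 8, motif at chr17:28728399-28728407: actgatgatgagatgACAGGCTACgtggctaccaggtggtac
Mapk11 (p38 beta), minus strand, exon 7, motif at chr15:89145866-89145874: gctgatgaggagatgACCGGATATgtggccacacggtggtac
Mapk12 (p38 gamma), minus strand, exon 7, motif at chr15:89134676-89134684: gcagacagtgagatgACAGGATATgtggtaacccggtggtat
Mapk6 (ERK3), minus strand, exon 3, motif at chr9:75395637-75395645: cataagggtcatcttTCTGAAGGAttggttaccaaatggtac
The 3 JNK windows differed from each other at 8 of 42 bases in every pair, whereas Mapk8 and Mapk3 differed at 18. Mapk3 and Mapk7, which encode the same motif, differed at 10. Over whole transcripts, no word of 75 bases (the read length) occurred in more than 1 of the 40 members, so no member shared a full-length read with another.

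The libraries held between 43000503 and 53565950 expected counts, of which the members took 0.398% to 0.431%. Qk itself, the targeted gene, was at 9.67, 8.18 and 14.9 RPKM (reads per kilobase of exon, scaled to the library's total) in the siNC libraries and at 1.39, 1.71 and 1.10 RPKM in the siQk libraries. The groups were apart, and Qk fell by 3.00 on the log2 scale (SE 0.34, adjusted p = 0.0149, edgeR quasi-likelihood test). Some defining motor neuron markers were near 0 in both groups: Chat averaged 0.0509 RPKM in siNC and 0.126 in siQk, and Slc5a7, Mnx1 and Lhx3 did not pass the filter on low values either. Slc18a3, Isl1 and Isl2 of the same list did pass, at means of 2.02, 4.79 and 3.43 RPKM in siNC and 1.93, 8.59 and 4.03 in siQk, and the neuronal genes Tubb3 and Prph averaged 269 and 698 RPKM in siNC. Of 12 markers of glia, microglia and fibroblasts, 2 passed the filter and the others stayed at or below 0.104 RPKM in both group means. The siQk libraries 1 and 3 resembled each other far more (chi-square per degree of freedom 24.4 over gene counts) than any other pair of one group (117 to 170).

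None of the 40 kinases was called changed. The call needed p under 0.01 and an adjusted p under 0.1 in the edgeR quasi-likelihood test, and 1 of the 12665 genes tested met it (0.00790%), which was Qk. Without siNC 1 no gene was called (Qk at -3.09, adjusted p = 0.125), and 5 genes were called by edgeR's exact test, 5 by its likelihood-ratio test, 19 by DESeq2 and 2 by voom, none of them a member. Of the members, 35 passed the filter (a mean log2 CPM above 0, which a gene high in only one group could also pass) and were tested. No member reached an unadjusted p under 0.05, against 366 of all genes (2.89%), and the adjusted p of all 35 members was 0.9996. Below, the p beside each kinase is that of a two-sided exact permutation test of its RPKM values over the 20 arrangements of the libraries, which cannot go below 0.1. Higher estimates in siQk were found for 17 members and lower ones for 18. Their median log2 fold change was -0.0031, beside 0.0034 over all genes tested, and their median absolute change of 0.127 stood beside 0.149. The changes ran from -0.51 (Map3k2) to 0.34 (Mapk7), and 31 of the 35 lay within 0.3 of 0. The median SE of 0.212 was as wide as the typical gene's (0.215), so changes of the size of a single SE were not detectable with 3 libraries a group. In bulk RNA, fewer cells of a type and less RNA per cell cannot be told apart.

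**Figure D1:**
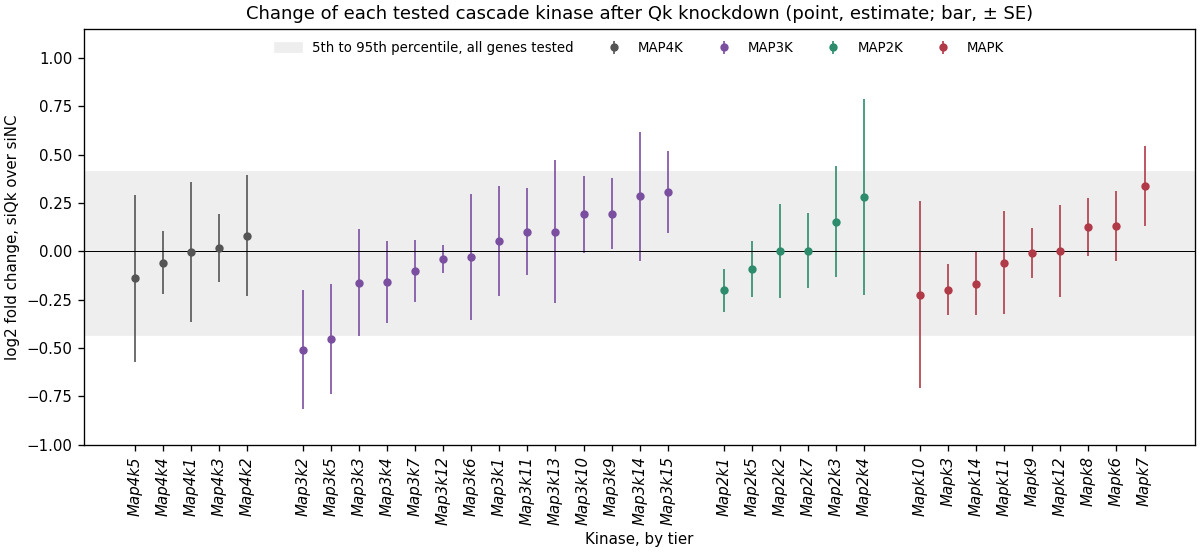
Log2 fold change of siQk over siNC (vertical axis) for tested kinases, ordered within each tier; points are edgeR estimates, bars are ± 1 SE between libraries and the grey band spans the 5th to 95th percentile of all 12665 genes tested. Map3k2 (-0.51) and Map3k5 (-0.45) lie below the band and no kinase shown lies above it.

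The kinases were well expressed. Their median level over all libraries was 16.9 RPKM for those tested, beside 10.6 for all genes tested. The mean over the 6 libraries was above 50 RPKM for 5 members, between 10 and 50 for 18, between 1 and 10 for 12 and under 1 for 5. These last 5 were the members that were not tested. Map2k6, a MAP2K that acts on p38, had 0 counts in every library. Taking 3 counts as the upper limit for a count of 0 gives 0.0253 to 0.0315 RPKM per library. This limit is approximate and covers counting error only. Mapk4 (ERK4) had counts in siNC 2 alone, at 0.00654 RPKM. Mapk13 (p38 delta) was between 0.0309 and 0.345 RPKM, Map3k8 (Tpl2, a MAP3K of inflammatory ERK signalling) between 0.0519 and 0.247, and Mapk15 between 0.0438 and 0.124, its siQk values all above its siNC values but too low to be tested. None of these 5 had more than 46 counts in a library, whereas no tested member had fewer than 250.

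**Figure D2:**
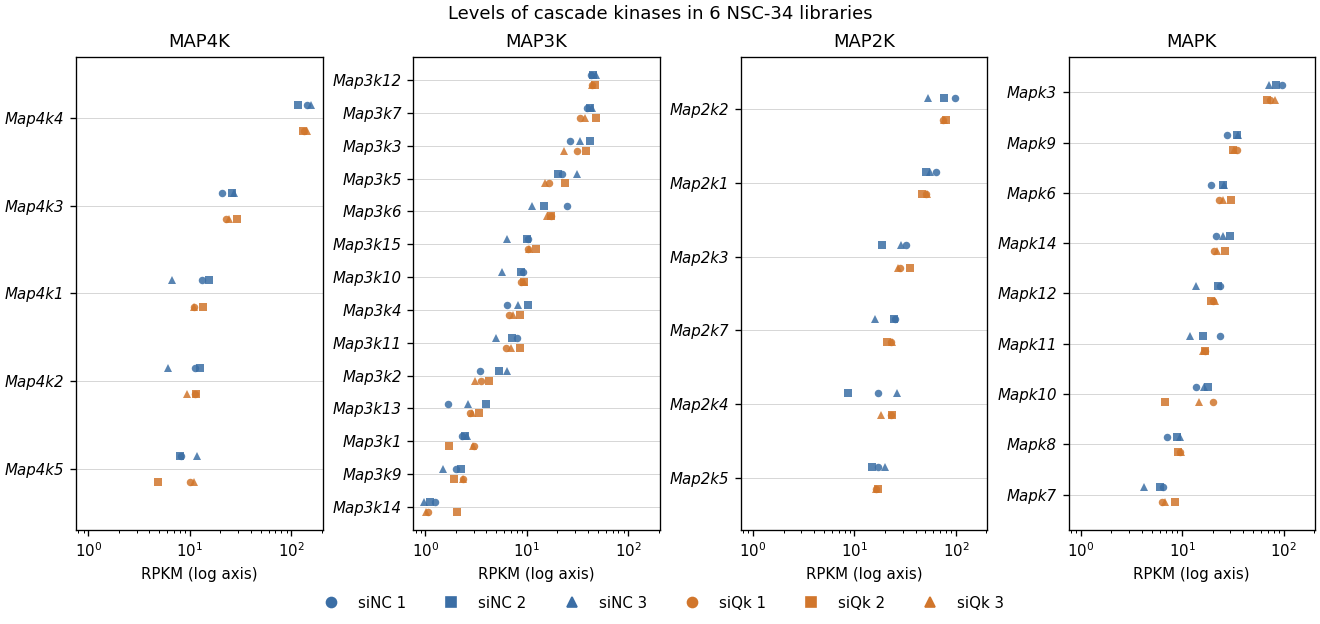
RPKM of tested kinases on a log axis, one panel per tier, with siNC libraries in blue and siQk libraries in orange and the marker shape giving the replicate number. Map4k4 is the highest member in all 6 libraries, and the siNC points of most members spread wider than the siQk points.

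Among the MAP4Ks, Map4k4 stood alone. This kinase, which acts above JNK, was at 142, 116 and 158 RPKM in siNC and at 133, 132 and 143 RPKM in siQk. It was the highest of all members in each of the 6 libraries and took 71.0% ± 5.24 of the summed MAP4K level in siNC and 70.6% ± 1.54 in siQk (SD, n = 3 each). The siQk values lay inside the siNC range, with a log2 fold change of -0.06 (SE 0.16, exact permutation p = 1). Its total level therefore differed by less than the spread between cultures. The sign turned to 0.076 without siNC 3.

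The other 4 MAP4Ks were far lower. Map4k3, which is linked to amino acid sensing by mTOR, averaged 24.7 ± 3.58 RPKM in siNC and 25.5 ± 3.48 in siQk (SD, n = 3 each). Map4k1 (HPK1, known from lymphocytes) was at 13.2, 15.5 and 6.64 RPKM in siNC and at 11.1, 13.6 and 10.9 in siQk. Map4k2 averaged 10.0 and 10.7 RPKM. Both Map4k1 and Map4k2 had their lowest value in siNC 3. Map4k5 was at 8.19, 7.94 and 11.7 RPKM in siNC and at 10.1, 4.82 and 10.9 in siQk, with the lowest value in siQk 2. The 5 estimates of this tier ran from -0.14 (Map4k5) to 0.08 (Map4k2) and had a median of -0.0031.

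The MAP3Ks were led by a neuronal and a cytokine-responsive kinase at similar levels. Map3k12 (DLK), which relays axon injury to JNK in neurons, was at 43.2, 44.8 and 47.9 RPKM in siNC and at 43.8, 46.9 and 43.9 RPKM in siQk. It had the smallest SE of any tested member, with a log2 fold change of -0.04 (SE 0.072, exact permutation p = 0.7). Of its annotated exon bases, 19.3% are shared with the neighbouring Pcbp2 and Gm10337. Pcbp2 was far more abundant (374 ± 54.3 RPKM in siNC and 398 ± 13.5 in siQk). Reads in the shared part cannot be assigned by strand. How much of the Map3k12 level, and so of its lead in the tier, came from Pcbp2 reads was not tested.

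Map3k7 (TAK1), which links tumour necrosis factor and interleukin receptors to JNK, p38 and NF-kB, was at 39.5, 41.9 and 43.7 RPKM in siNC and at 33.7, 48.1 and 37.1 RPKM in siQk. The siQk values fell on both sides of the siNC range, with siQk 2 the highest of all 6. The log2 fold change was -0.10 (SE 0.16, exact permutation p = 0.7), and without siQk 2 it was -0.26. Map3k12 exceeded Map3k7 in 5 of 6 libraries, the exception being siQk 2. Together with Map3k3 (MEKK3; 34.1 ± 7.83 and 31.0 ± 7.58 RPKM in siNC and siQk) they made up most of the tier.

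The largest estimates among the members were those of Map3k2 and Map3k5, named here, like the other members outside the naming rule, after their values were seen. Map3k2 (MEKK2, which acts above ERK5) was at 3.43, 5.32 and 6.41 RPKM in siNC and at 3.57, 4.22 and 3.09 in siQk. Map3k5 (ASK1, a sensor of oxidative stress) was at 22.1, 20.5 and 31.2 RPKM in siNC and at 16.5, 23.5 and 15.2 in siQk. For both genes the highest value was in siNC 3, the lowest was in siQk 3, and the groups overlapped. The log2 fold changes were -0.51 (SE 0.31) for Map3k2 and -0.45 (SE 0.28) for Map3k5, neither past the test (exact permutation p = 0.3 for both).

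Map3k15 (ASK3), a relative of Map3k5, was the only tested member whose groups did not overlap. It was at 10.3, 9.95 and 6.36 RPKM in siNC and at 10.4, 12.4 and 10.6 RPKM in siQk. The gap between the highest siNC and the lowest siQk value was small beside the distance of siNC 3 from the other siNC libraries. The log2 fold change was 0.31 (SE 0.21, adjusted p = 0.9996). An exact permutation test over the 20 arrangements gave a two-sided p of 0.1, the smallest it can give. Groups that do not overlap were found for 1119 of all genes tested (8.84%) and for 1 of 35 members (2.86%), so the members' share was below that of all genes. Without siNC 3 the log2 fold change was 0.14.

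Of the annotated exon bases of Map3k15 (chrX:159988433-160123351, plus strand), 13.9% lie under exons of Pdha1, a subunit of pyruvate dehydrogenase on the minus strand. The library kit keeps no strand. Pdha1 was at 59.3, 57.2 and 39.5 RPKM in siNC and at 61.8, 71.3 and 66.1 in siQk. Its values did not overlap either, and like Map3k15 it was lowest in siNC 3 and highest in siQk 2. How many of the reads counted for Map3k15 came from Pdha1 was not tested.

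**Figure D3:**
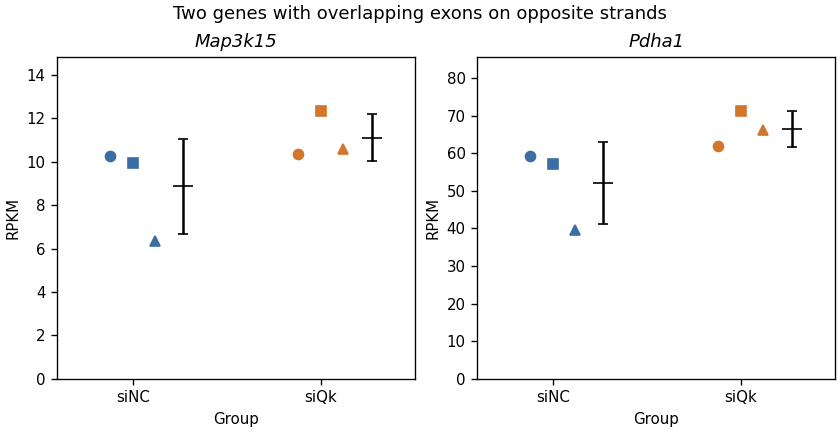
RPKM of Map3k15 and of Pdha1, whose exons overlap it on the other strand, with one point per library (circle, square and triangle for replicates 1, 2 and 3) and black bars for the group mean ± SD (n = 3). Both genes have their lowest value in siNC 3 (6.36 and 39.5 RPKM) and their highest in siQk 2 (12.4 and 71.3 RPKM).

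The remaining MAP3Ks included the mixed-lineage kinases Map3k9, Map3k10 and Map3k11, which act on JNK. They averaged 1.91, 7.86 and 6.67 RPKM in siNC and 2.21, 9.10 and 7.26 in siQk, and each was lowest in siNC 3. Map3k13 (LZK, a relative of DLK) was far scarcer than Map3k12, at 1.66, 4.001 and 2.64 RPKM in siNC and 2.77, 3.40 and 2.85 in siQk. Map3k14 (NIK, of the non-canonical NF-kB pathway) was the lowest member tested, between 0.979 and 2.06 RPKM. Its highest value was in siQk 2. Map3k1 (MEKK1) averaged 2.43 and 2.56 RPKM, Map3k4 (MEKK4) 8.22 and 7.50, and Map3k6 (ASK2) 17.0 and 16.9 in siNC and siQk. None of these MAP3Ks reached an unadjusted p under 0.05.

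The MAP2Ks that feed the ERK branch were the most abundant of their tier. Map2k2 (MEK2) was at 99.0, 75.8 and 52.9 RPKM in siNC and at 74.8, 80.5 and 75.6 RPKM in siQk. The siNC libraries spread almost evenly over this range while the siQk libraries sat close together, and the group means were 75.9 ± 23.1 and 77.0 ± 3.07 RPKM (SD, n = 3 each). The log2 fold change was 0.0005 (SE 0.24, exact permutation p = 1). Map2k1 (MEK1) was at 63.5, 51.2 and 55.0 RPKM in siNC and at 51.0, 46.8 and 52.3 RPKM in siQk. Of the siQk values, only that of siQk 3 lay within the siNC range, and the log2 fold change was -0.20 (SE 0.11, exact permutation p = 0.2). Map2k2 exceeded Map2k1 in 5 of 6 libraries, all but siNC 3. Map2k5 (MEK5), which acts on ERK5, averaged 17.3 ± 2.42 and 16.6 ± 0.394 RPKM.

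The JNK-directed MAP2Ks were Map2k4 and Map2k7. Map2k4 (MKK4), which acts on both JNK and p38, was at 17.2, 8.60 and 26.1 RPKM in siNC and at 22.9, 23.7 and 18.4 RPKM in siQk. It had the widest spread within a group of any tested member, 3.04-fold between siNC 2 and siNC 3, and the siQk values lay inside that range. The log2 fold change was 0.28 (SE 0.50, exact permutation p = 0.6). Over the fits that left out 1 siNC library it ran from -0.061 (without siNC 2) to 0.74 (without siNC 3). Under voom it was 0.66 (voom unadjusted p = 0.036, adjusted p = 0.82). The edgeR quasi-likelihood test without siNC 3 gave an unadjusted p of 0.039 (adjusted p = 0.89). Map2k7 (MKK7), which acts on JNK alone, was at 25.4, 24.4 and 16.1 RPKM in siNC and at 22.7, 20.9 and 23.3 RPKM in siQk, with a log2 fold change of 0.004 (SE 0.19, exact permutation p = 1). In the annotation 35.2% of its exon bases are also part of the model Gm49320.

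For p38, Map2k3 (MKK3) was at 32.3, 18.5 and 28.7 RPKM in siNC and at 27.8, 35.4 and 27.1 RPKM in siQk. As for Map2k4, the lowest value was in siNC 2. The log2 fold change was 0.15 (SE 0.29, exact permutation p = 0.6). With Map2k6 at 0 counts, Map2k3 and Map2k4 carried the p38-directed transcripts of this tier. Summed over the 7 MAP2Ks, the level was 216 ± 33.7 RPKM in siNC and 218 ± 5.93 in siQk.

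Mapk3 (ERK1), a kinase of the growth factor branch, had the highest mean of the MAPKs. It was at 96.2, 84.7 and 71.8 RPKM in siNC and at 73.5, 68.2 and 81.8 RPKM in siQk. The siQk libraries 1 and 3 lay inside the siNC range and siQk 2 below it, with a log2 fold change of -0.20 (SE 0.13, exact permutation p = 0.3).

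The JNK branch was mostly Mapk9. Mapk9 (JNK2) was at 27.5, 34.6 and 35.2 RPKM in siNC and at 34.4, 31.5 and 32.6 RPKM in siQk, and its log2 fold change was -0.0096 (SE 0.13, exact permutation p = 1). Mapk8 (JNK1) was at 7.04, 8.89 and 9.58 RPKM in siNC and at 9.44, 9.16 and 9.81 RPKM in siQk. Of its siQk values, siQk 1 and 2 lay in the upper part of the siNC range and siQk 3 above it. The estimate was 0.13 on the log2 scale (SE 0.15, exact permutation p = 0.3), and it was 0.0028 without siNC 1 and 0.25 without siNC 3. Mapk10 (JNK3), the JNK largely restricted to neurons, was at 13.8, 17.8 and 16.6 RPKM in siNC and at 20.3, 6.85 and 14.7 RPKM in siQk. Library siQk 2 was the lowest and siQk 1 the highest of the 6, so the siNC range lay inside the siQk range. The log2 fold change of Mapk10 was -0.22 (SE 0.48, exact permutation p = 0.8), and without siQk 2 it was 0.10.

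Within the 3 siNC libraries the make-up of the JNK branch was nearly constant: Mapk9 took 56.9% ± 0.472 of the summed JNK level, Mapk10 28.2% ± 1.06 and Mapk8 14.9% ± 0.621 (SD, n = 3). In siQk the shares were 59.0% ± 6.58, 24.0% ± 8.79 and 17.0% ± 2.28. The siQk libraries differed more among themselves: Mapk10 held 31.7%, 14.4% and 25.8% in siQk 1, 2 and 3. In siQk 2 it was below Mapk8 (19.3%). In the other 5 libraries Mapk10 was above Mapk8. The summed JNK level averaged 57.0 ± 7.47 RPKM in siNC and 56.3 ± 8.36 in siQk.

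**Figure D4:**
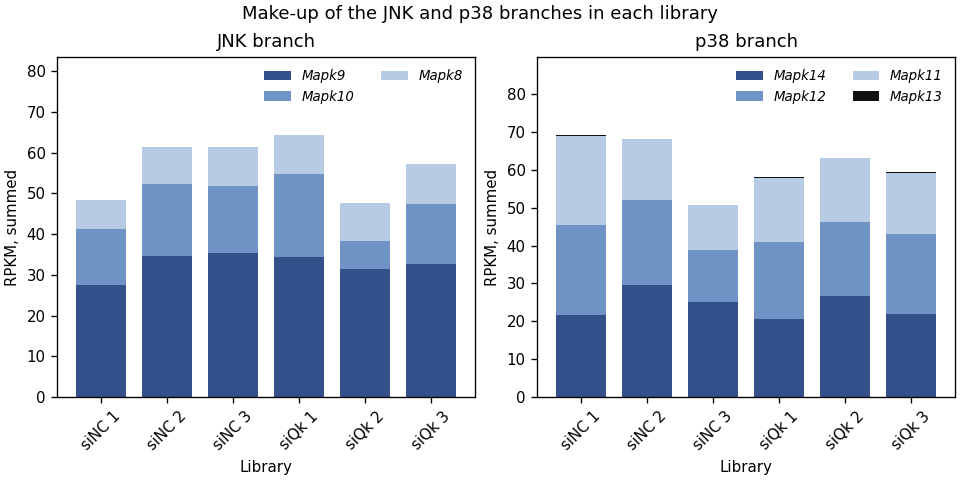
Summed RPKM of the JNK and p38 MAPKs in each library, stacked by gene, on linear axes that start at 0. The JNK bars of siNC 1 (48.4) and siQk 2 (47.5) are the lowest, and the Mapk10 segment is smallest in siQk 2 (6.85 RPKM).

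The p38 branch was shared by 3 genes at like levels. Mapk14 (p38 alpha) was at 21.7, 29.5 and 25.2 RPKM in siNC and at 20.6, 26.7 and 21.9 RPKM in siQk, with a log2 fold change of -0.17 (SE 0.16, exact permutation p = 0.6). Mapk12 (p38 gamma) averaged 20.01 ± 5.58 and 20.3 ± 0.80 RPKM and Mapk11 (p38 beta) 17.1 ± 5.86 and 16.7 ± 0.402 RPKM in siNC and siQk (SD, n = 3 each). Both were lowest in siNC 3, at 13.6 and 11.9 RPKM. The summed p38 level was 62.7 ± 10.4 RPKM in siNC and 60.2 ± 2.54 in siQk.

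Outside these branches, Mapk7 (ERK5) was at 6.47, 6.12 and 4.23 RPKM in siNC and at 6.37, 8.45 and 6.73 RPKM in siQk. Its log2 fold change of 0.34 (SE 0.21, exact permutation p = 0.2) was the highest of the members and did not pass the test. The atypical Mapk6 averaged 23.5 ± 3.69 and 26.2 ± 3.45 RPKM. Over all 13 MAPKs the summed level was 308 ± 6.78 RPKM in siNC and 294 ± 7.28 in siQk, and the groups overlapped.

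Most of the kinases were more variable among the siNC than among the siQk libraries, of which siQk 1 and 3 were much alike. The members' median absolute deviation from their own mean was 0.0883 and 0.0741 (log2) in siQk 1 and 3 but 0.173 in siQk 2, beside 0.233, 0.151 and 0.261 in siNC 1, 2 and 3. The SD of the TMM-scaled log2 CPM was larger in siNC than in siQk for 29 of 35 members (82.9%), against 60.5% of all genes tested, and its median was 0.314 in siNC and 0.167 in siQk. The deviations of single libraries followed both the base composition and the length of the transcript. On this TMM-scaled scale, 12 members had their lowest value of all libraries in siNC 3, with a transcript GC content of 48.6% to 64.9% (median 56.9%), and 10 had their highest, with 39.4% to 53.9% (median 45.6%). The first set held Map2k2, Map2k7, Mapk11, Mapk12, Map3k15 and the mixed-lineage kinases. On the same scale, the second held Mapk8, Mapk9, Map2k4, Map3k2, Map3k5 and Map4k4.

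Across the 35 members, which share their libraries and are not independent replicates, Spearman's rho between transcript GC and the deviation from a gene's own mean was -0.77 in siNC 3 and 0.69 in siNC 1. In siNC 2 and the siQk libraries it lay between 0.035 and 0.13. For exon length, rho was 0.45 in siNC 3, -0.63 in siNC 1 and between -0.18 and 0.13 in the other libraries. The parts of GC and of length were not separated. Over 12533 genes tested, rho in siNC 3 and siNC 1 was -0.49 and 0.56 for GC and 0.23 and -0.32 for length. When smooth trends with transcript length and GC were taken out of each library, an alternative chosen after the data were seen, the members' median SD went from 0.314 to 0.162 in siNC and from 0.167 to 0.166 in siQk, and 21 of 35 members (60%) were then more variable in siNC, against 51.9% of all genes. No member was called changed with those trends removed (smallest adjusted p = 0.949), and 1 had an unadjusted p under 0.05.

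**Figure D5:**
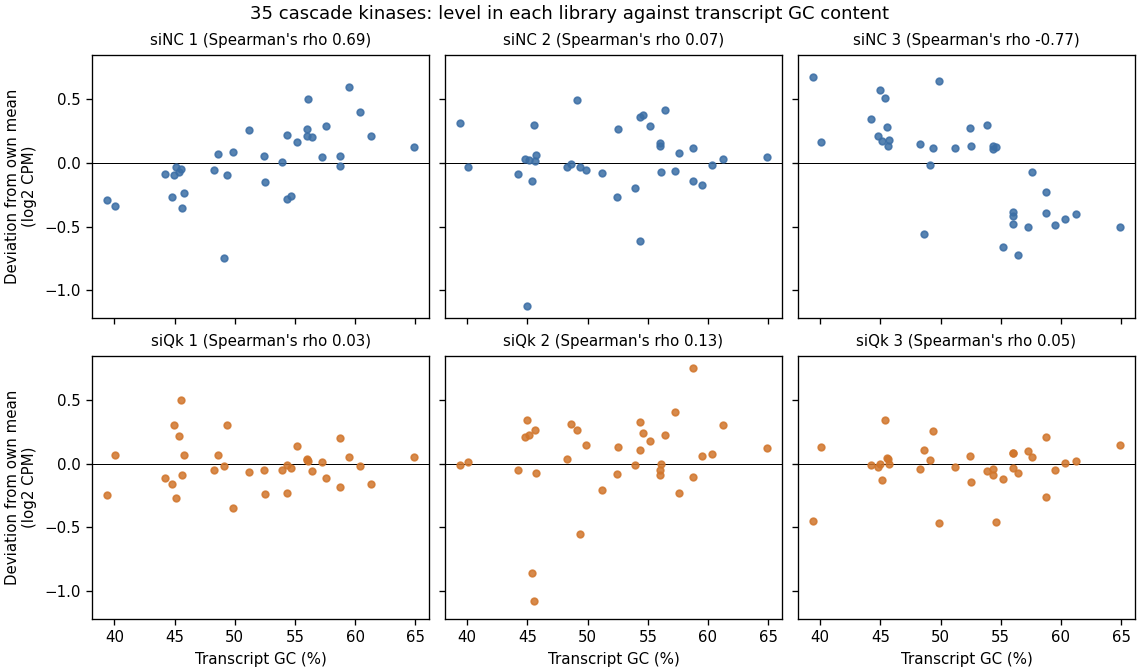
Deviation of each of the 35 tested kinases from its own mean over the 6 libraries (log2 CPM, vertical axis) against the GC content of its longest annotated transcript (horizontal axis, percent), one panel per library. The points fall with GC in siNC 3 (rho -0.77), rise with it in siNC 1 (0.69) and show little slope in the other 4 libraries.

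The wider pathway gave the same count of calls. In 6 lists of other pathway genes, which together with the members were chosen with earlier results of these data known, no gene was called changed. Of the related kinases (the Raf, Tao and Mst kinases and others close to the cascade) 14 of 15 matched were tested, and their median change was 0.06 (log2). None had an unadjusted p under 0.05. Tnik and Mink1, the nearest relatives of Map4k4, averaged 17.8 ± 3.47 and 26.2 ± 3.50 RPKM in siNC and 14.8 ± 6.02 and 29.7 ± 6.06 in siQk. Tnik, like Mapk10 and Map4k5, was lowest in siQk 2, at 7.88 RPKM.

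Among 18 upstream activators tested (median -0.04), the partners of TAK1 did not pass the test. Tab1 was at 14.5 ± 1.12 RPKM in siNC and 12.5 ± 2.59 in siQk, Tab2 at 52.9 ± 16.9 and 64.9 ± 13.2, and Tab3 at 3.08 ± 0.83 and 3.31 ± 0.86 (SD, n = 3 each). The one gene of this list with an unadjusted p under 0.05 was Tnfrsf1a, the tumour necrosis factor receptor above TAK1, at 65.0, 53.1 and 60.9 RPKM in siNC and 43.6, 53.1 and 43.7 in siQk. Its log2 fold change was -0.38 (SE 0.14, adjusted p = 0.9996). None of 14 scaffolds, such as the JNK-interacting proteins, and none of 11 downstream kinases had an unadjusted p under 0.05, with medians of -0.03 and 0.04.

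Of 17 transcription factors tested, which are substrates or early targets of the cascades, 3 had an unadjusted p under 0.05 (17.6%, against 2.89% of all genes), each with a lower estimate in siQk. Ddit3 (CHOP), induced by stress in the endoplasmic reticulum, was at 312, 225 and 366 RPKM in siNC and 211, 199 and 197 in siQk. Fosl2, a partner of Jun in AP-1, was at 13.5, 10.6 and 13.8 RPKM in siNC and 7.95, 10.3 and 8.52 in siQk. The groups did not overlap for either, and for no other of the 17 (11.8%, near the 8.84% of all genes tested). The log2 fold changes were -0.60 (SE 0.23) for Ddit3 and -0.53 (SE 0.18) for Fosl2, and both had an adjusted p of 0.9996. Myc was the third, at -0.44 (SE 0.18) with overlapping groups. Jun itself, the JNK substrate, was at 6.91, 9.77 and 5.01 RPKM in siNC and 5.73, 14.9 and 5.55 in siQk, with the highest value in siQk 2, and had a log2 fold change of 0.25 (SE 0.52, exact permutation p = 0.8).

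Of 15 phosphatases that act on MAPKs (median 0.04), the one with an unadjusted p under 0.05 was Ptpn7, at 1.33 ± 0.52 RPKM in siNC and 0.787 ± 0.142 in siQk (log2 fold change -0.78, adjusted p = 0.9996). Dusp6, an ERK phosphatase that is itself a sensitive target of ERK signalling, averaged 138 ± 33.5 and 132 ± 62.8 RPKM. Dusp6 was highest in siQk 2, as were Jun, Fos and Dusp10, all of them named after their values were seen. Other genes of these lists went otherwise. Egr1 was highest in siNC 3 (31.4 RPKM, beside 23.4 in siQk 2), and Myc was lowest in siQk 2 (60.4 RPKM).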

How the data were processed

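Poly-A RNA of 3 siNC and 3 siQk cultures was sequenced by the authors as 75-base read pairs (TruSeq version 2, no strand), mapped by OLego, and Quantas gave the counts per gene. The deposited values are expected counts and RPKM, which the authors scaled by exon length and column total. The labels name the build mm10.

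Expected counts were rounded, scaled by TMM and kept where the mean log2 CPM exceeded 0 (12665 genes). All 6 libraries entered 1 quasi-likelihood fit (edgeR 4.0.16, R 4.3.3), with Benjamini-Hochberg adjustment over all genes kept and the study's cutoffs (p under 0.01, adjusted p under 0.1). Standard errors come from log2 CPM between libraries (prior count 2). Precision is set by 3 libraries a group. The fit was tested on simulated data.

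Positions and GC content come from GENCODE release 21 (GRCm38), matched for 22581 of 23038 genes, and may not be the model counted over. The members and lists were chosen with earlier results of these data known. Named with values by rule were Qk, the JNK kinases and those acting on them, Map4k4, Map3k7, members past p 0.05 or with groups apart, the highest of each tier, kinases of the ERK and p38 branches and the most variable member. Hras and Zak were not matched by symbol and not analysed here, and Mapksp1 is an older symbol of Lamtor3, which was. Values of 1 member and 1 marker are not reported here, though both remain in the counts.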

Additional observations from a re-analysis of the deposited data

How the results depend on the processing

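No member and no gene of the 6 pathway lists was called changed at an adjusted cutoff of 0.05 or in any of the 17 alternative fits (other scalings, filters and tests, voom with library quality weights, a replicate block, each library left out in turn, and removal of length and GC trends, the last added after seeing the data). The lowest adjusted p of a member was 0.764 (voom), and up to 3 members had an unadjusted p under 0.05 (voom). Over all genes 5 were called by the edgeR exact test, 5 by the likelihood-ratio test, 19 by DESeq2 and 2 by voom, and 0 to 1 with a library left out (0 without siNC 1, where Qk had an adjusted p of 0.125). The members' median was -0.031 under voom, 0.054 with trends removed and -0.037 to 0.022 with a library left out. With a library left out, the median ran from -0.058 to 0.15 for related kinases, -0.11 to 0.0063 for upstream activators, -0.083 to -0.020 for scaffolds, -0.069 to 0.14 for downstream kinases, -0.15 (without siQk 2) to 0.24 (without siNC 2) for phosphatases and -0.15 to -0.054 for transcription factors. Under voom the median was -0.031 for downstream kinases and -0.12 for phosphatases, and with trends removed it was 0.0075 for scaffolds. That of transcription factors was -0.086 under filterByExpr, -0.13 under voom, -0.025 with the block and -0.026 with trends removed. Signs of small changes turned. Map4k4 was at 0.085 under voom. Mapk9 was at 0.017 under total counts, 0.035 under voom and 0.0096 with trends removed. Map2k7 was at -0.00094 with DESeq2 size factors, -0.0018 with no filter, -0.00096 in DESeq2 and -0.011 under voom. Map2k2 was at -0.0041 with size factors and in DESeq2, -0.0049 with no filter, -0.00068 under filterByExpr and -0.040 under voom. With a library left out, ranges that crossed 0 were -0.20 to 0.076 (Map4k4), -0.26 to 0.0021 (Map3k7), -0.12 to 0.082 (Mapk9), -0.60 to 0.10 (Mapk10), -0.061 to 0.74 (Map2k4), -0.16 to 0.12 (Map2k7), -0.19 to 0.23 (Map2k2), -0.080 to 0.028 (Map3k12) and -0.068 to 0.31 (Map2k3). Ranges of 1 sign were 0.0028 to 0.25 (Mapk8), 0.14 to 0.42 (Map3k15), -0.28 to -0.098 (Mapk3), -0.29 to -0.12 (Map2k1) and -0.29 to -0.079 (Mapk14). The cause was not tested. Same-numbered siNC and siQk libraries deviated together by 0.21, 0.018 and -0.17 (correlation), so the numbers were not taken as pairs; the replicate block left 1 gene and 0 members called.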
